A study of Rattus norvegicus with 2 samples.

Results

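The peaks described here are isolated, long stretches of acetylated chromatin in rat sciatic nerve. They were chosen from a list of H3K27ac peaks on the numbered chromosomes by 3 conditions: a length of at least 5 kb and under 10 kb, no other peak within a neighbour distance of about 13 kb, and no adjoining peak-free gap of 1 Mb or more. All distances are from edge to edge. The neighbour distance is the first of 20 equal steps over 250 kb; among peaks of this length, the widest nearest gap below it was 12443 bp and the narrowest above it 12507 bp. Of the 32996 peaks in the list, 32205 lay on the 20 numbered chromosomes, 2203 of these had a length in the range, and 373 met every condition. The other 1822 peaks of the same length that had a neighbour within this distance are called clustered and serve for comparison. The remaining 8 were isolated but bordered a gap of 1 Mb or more, and were set aside. Length and spacing chose the peaks, so both are given as a description and support nothing.

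Nerves from Sprague Dawley animals aged 15 days after birth were pooled, and chromatin immunoprecipitation with sequencing (ChIP-seq) was carried out with an antibody to acetylated lysine 27 of histone H3 (H3K27ac). The labels name no treatment, genotype or sex. The series has 1 ChIP library and 1 input library, and a single list of peak positions, named for H3K27ac, was deposited. With no replicate, no score per peak and no read count, every comparison is between regions of 1 list, and no test across animals was possible. The intervals given are 95% intervals that treat peaks as independent and cover counting error only.

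H3K27ac is placed on nucleosomes by the acetyltransferases CBP and its close relative EP300 and removed by histone deacetylases. It marks promoters and enhancers in use, and long or clustered stretches of it are often found near genes that define a cell type. In peripheral nerve of this age Schwann cells form myelin, under the control of transcription factors such as SOX10 and EGR2. The nerve also holds fibroblasts, perineurial cells, vessels and immune cells, so a peak cannot be assigned to a cell type from this list. The build of the coordinates is not given in the sources used here. On 13 of the 20 numbered chromosomes, peaks were listed past the final gene of the assembly GRCr8, so that assembly's genes and sequences could not be placed against the peaks. Whether a given isolated peak is a promoter, an enhancer or a gene body was therefore not analysed here, and positions are those of the deposited list.

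The isolated long peaks made up 16.9% of peaks of their length (interval 15.4 to 18.6%) and 1.16% of all peaks on the numbered chromosomes. Together they covered 2.42 Mb, or 3.34% of the covered length. Among isolated peaks of any length without a gap of 1 Mb beside them, they were 3.37% (373 of 11060). Isolation grew less frequent with length across the list. Here and in later values by length, peaks beside a gap of 1 Mb or more are not counted as isolated. They stay in the total of each length. It was met by 39.2% of peaks of exactly 500 bp, the shortest common length, and by 39.7% of peaks of 1 to 2 kb. It was 22.5% at 4 to 5 kb, 19.2% at 5 to 6 kb and 12.4% at 9 to 10 kb. Above the range it was 9.74% at 10 to 15 kb. From 2 kb upward the share declined with each step of length, except between 7 to 8 kb (14.2%) and 8 to 9 kb (15.7%), whose intervals overlapped.

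**Figure D1:**
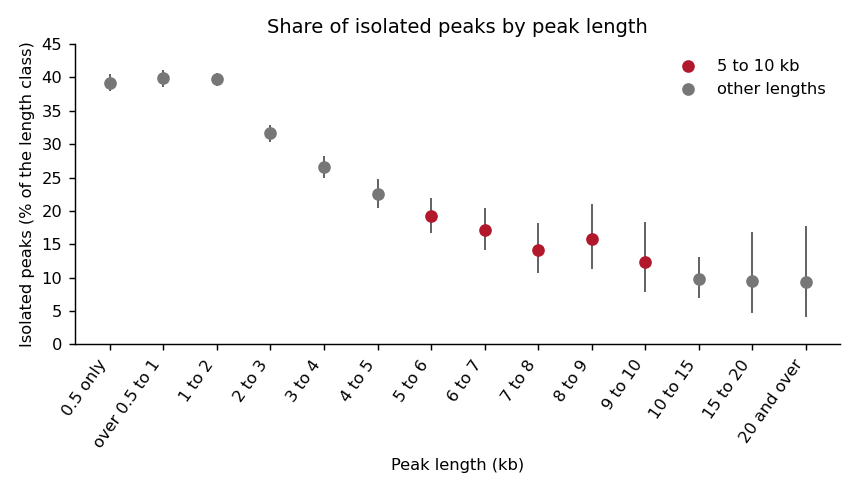
Percentage of peaks that were isolated, by peak length in kb, on the numbered chromosomes. Points are shares, bars are exact 95% binomial intervals, and red marks the range of 5 to 10 kb, where the share declined from 19.2% to 12.4%.

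The numbers of isolated and of clustered long peaks both declined with each step of length. Clustered ones went from 699 at 5 to 6 kb to 149 at 9 to 10 kb. Of the 373, 167 were 5 to 6 kb long, 97 were 6 to 7 kb, 52 were 7 to 8 kb, 36 were 8 to 9 kb and 21 were 9 to 10 kb. Their median length was 6212 bp (6001 to 6394 bp, quartiles 5433 and 7232 bp), and the clustered peaks of the range had a median of 6422.5 bp (6325 to 6515 bp, quartiles 5614 and 7560 bp). The isolated peaks had the shorter median on 15 of the 20 chromosomes.

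The 10 longest isolated peaks were spread over 9 chromosomes. The longest, at chr4:224722234-224732201, was 9968 bp long, with gaps of 20.9 and 26.9 kb to the peaks on its sides. It was followed by chr12:16120880-16130835 with 9956 bp and gaps of 46.2 and 18.6 kb. A second peak on chromosome 4, chr4:233432548-233442468, was 9921 bp long and stood 28.2 kb from one neighbour and 120.7 kb from the other. Chromosome 5 held a peak of 9826 bp at chr5:144441628-144451453, and chromosome 17 one of 9804 bp at chr17:56597052-56606855. The other 5 had lengths between 9466 and 9514 bp. They were chr20:36524506-36534019, chr2:83232313-83241820, chr6:65601963-65611461, chr3:135285401-135294891 and chr19:57469381-57478846. Of these 10, the nearest peak was 500 bp long for 3 and shorter than the isolated peak for all.

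The limits of the rule separated peaks with close values of the limiting quantity. At the lower limit of length, chr10:48105891-48110890 with exactly 5000 bp and chr8:108371294-108376296 with 5003 bp were inside. Isolated peaks of 4989 bp (chr1:192782288-192787276) and 4986 bp (chr17:44951119-44956104) were outside. At the upper limit, the 2 longest peaks above were inside and peaks of 10033 bp (chr10:96034069-96044101) and 10185 bp (chr12:15652112-15662296) outside. For the distance to a neighbour, chr7:117272426-117277786 with 12507 bp and chr7:71073324-71079740 with 12510 bp were inside. The clustered peaks chr12:24903166-24909925 with 12443 bp and chr3:156240961-156246426 with 12403 bp were outside. For the adjoining gap, chr2:3814165-3819409 with 921.7 kb and chr2:55605544-55610976 with 889.1 kb were inside. Gaps of 1011.1 kb at chr11:82898800-82904792 and 1065.7 kb at chr3:56363295-56369554 put these peaks outside.

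The gaps beside the isolated long peaks were bounded by the rule and are given as a description. The nearest peak was at a median of 22.2 kb (20.9 to 24.0 kb, quartiles 16.2 and 31.7 kb), and the peak on the other side at 53.5 kb (48.0 to 61.2 kb). The nearest gap exceeded 25 kb for 153 of the 373 peaks (41.0%), 50 kb for 47 (12.6%), 100 kb for 12 (3.22%) and 200 kb for 1. Over all peaks these shares were 21.5% for 25 kb, 10.5% for 50 kb, 4.63% for 100 kb and 1.99% for 200 kb. On the farther side, 278 isolated long peaks (74.5%) had their gap within 100 kb and 7 (1.88%) had a gap of 500 kb or more. Over all peaks the shares were 76.5% and 5.31%. At isolated long peaks, the farther gap was 2.00 times the nearer one in the median. It was less than 1.5 times the nearer gap at 117 peaks (31.4%), and more than 5 times at 55 (14.7%). Isolated peaks under 5 kb, 10631 in number and chosen with the same distances, lay farther apart, with a median of 29.2 kb to the nearest peak (28.7 to 29.8 kb). Their nearest gap exceeded 100 kb in 10.7%. Their farther gap was less than 1.5 times the nearer one in 28.1% and more than 5 times in 19.5%. These shares were 13.7% and 50.0% for clustered long peaks, and 16.8% and 41.8% for all peaks. The rule bounds both gaps of isolated peaks, so it also bears on this ratio.

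**Figure D2:**
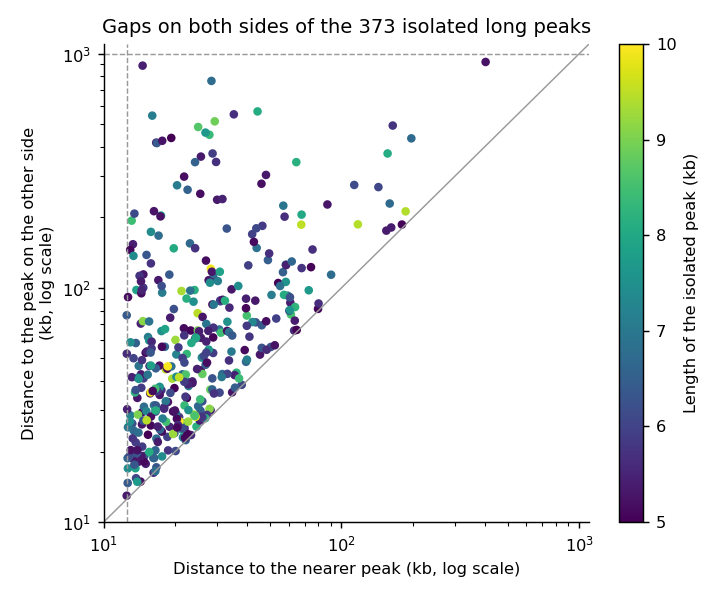
Distance in kb from each of the 373 isolated long peaks to its nearer neighbouring peak and to the peak on its other side, on log scales, coloured by the length of the isolated peak. Dashed lines are the limits of the rule, the neighbour distance and 1 Mb, the grey diagonal marks equal gaps, and most peaks have both gaps under 100 kb.

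The remotest isolated long peak was chr2:3814165-3819409, a peak of 5245 bp with 921.7 kb on its left and 404.0 kb on its right, and it alone of the 373 had no other peak within 250 kb. On chromosome 15, chr15:64429607-64436344 had gaps of 434.9 and 196.8 kb. On chromosome 6, chr6:65797658-65807083 had gaps of 186.2 and 212.2 kb, and the peak to its left was chr6:65601963-65611461, among the 10 longest named above. These peaks of 9426 and 9499 bp followed each other with nothing between them, and the second-named also had 67.8 kb free on its other side. The remotest on chromosome 8 was chr8:88201283-88206338 with gaps of 186.4 and 179.6 kb, and that on chromosome 5 was chr5:160836035-160841425 with 162.0 and 181.1 kb. Chromosomes 7, 4, 3 and 1 each had a peak with a nearest gap between 143.1 and 159.6 kb. These were chr7:38247874-38254574, chr4:182104626-182112693, chr3:153608922-153614283 and chr1:63435424-63441488. Of these, the peak on chromosome 4 was the longest, at 8068 bp, with 374.9 kb free on its right.

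On the other chromosomes the largest nearest gap was below 90 kb. It was 87.3 kb at chr18:56969784-56975077, 80.2 kb at chr9:52087878-52093517, 75.6 kb at chr19:52540557-52546228 and 68.0 kb at chr17:43196865-43202610. Gaps of 64.6 kb at chr10:77394280-77402462, 60.8 kb at chr16:75583305-75589537 and 58.5 kb at chr14:67261284-67266722 came next. The smallest of these maxima were 46.2 kb at chr12:16068365-16074643, 44.4 kb at chr20:30568373-30576445, 40.1 kb at chr11:56680724-56687787 and 40.0 kb at chr13:89905044-89910889. The peak on chromosome 20 was the most one-sided of these, with 566.9 kb free on its left. The 20 remotest peaks, 1 for each chromosome, ran from 5056 to 9426 bp in length.

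The nearest neighbours of isolated long peaks were mostly short peaks. Their median length was 1627 bp (1502 to 1835 bp), against 2221 bp (2137 to 2373 bp) for the nearest neighbours of clustered long peaks, 1373 bp (1336 to 1402 bp) for those of isolated peaks under 5 kb and 1576 bp for those of all peaks. The neighbour's length was not used to choose the peaks, but the comparison with clustered peaks is not independent of the rule. The nearest neighbour of a clustered long peak is always clustered, while 208 of the 373 isolated long peaks had an isolated one. Where the nearest neighbour of an isolated long peak was clustered, its median length was 2040 bp (1586 to 2392 bp). That interval overlapped the one beside clustered long peaks. A nearest neighbour of 5 kb or more was found beside 10.2% of isolated long peaks (7.31 to 13.7%) and 21.9% of clustered ones (20.02 to 23.9%). The share was 9.41% over all peaks, inside the interval of the isolated long peaks, and 4.86% for isolated peaks under 5 kb. Nearest neighbours of 500 bp were found beside 13.9% of isolated and 14.7% of clustered long peaks, and 16.9% of all peaks. Within chromosomes, the neighbour's median length was lower for isolated than for clustered long peaks on 15 of 20 chromosomes, and in each 1 kb step from 5 to 10 kb as well. With gaps measured between peak centres in place of edges, which also made 620 peaks isolated, the order turned, with 1950.5 bp beside isolated and 1902.5 bp beside clustered long peaks. For the 373 and 1822 peaks as chosen by edges, a nearest peak picked by centres gave 1586 and 2026 bp, a setting added after seeing the data.

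Isolated long peaks rarely stood beside a longer one, which is largely set by the length used to choose them. They were longer than both flanking peaks in 334 of 373 cases (89.5%), compared with 78.2% of the clustered peaks of the range. They were longer than the nearest peak in 94.4%, against 85.5% of clustered long peaks, 44.0% of isolated peaks under 5 kb and 47.5% of all peaks. Of the nearest neighbours of isolated long peaks, 208 (55.8%) were themselves isolated, with a median length of 1498.5 bp. The other 165 belonged to a cluster and had a median of 2040 bp. Both flanking peaks were isolated for 138 of the 373 (37.0%), 1 of them for 175 (46.9%) and neither for 60 (16.1%). The rule already frees 1 side of each such neighbour, so these counts are in part set by the choice of peaks. The nearest peak was isolated for 65.6% of isolated peaks under 5 kb and 23.8% of all peaks.

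Some isolated long peaks followed each other without another peak between them. There were 16 such pairs, on 12 chromosomes, and their gaps ran from 18.3 to 374.9 kb. The closest pair was chr2:83207082-83214056 and chr2:83232313-83241820, with lengths of 6975 and 9508 bp and 18.3 kb between them. On chromosome 10, peaks of 6219 and 6327 bp (chr10:61549719-61555937 and chr10:61575682-61582008) were 19.7 kb apart. On chromosome 15, peaks of 7486 and 9274 bp (chr15:47648897-47656382 and chr15:47683249-47692522) were 26.9 kb apart. On chromosome 12, the remotest peak and the longest one, given above, formed a pair with 46.2 kb between them, so 2 of the 5 isolated long peaks of this chromosome were neighbours. These pairs were chosen after their values were seen. Over all 373, the nearest other isolated long peak was 1.19 Mb away in the median, and 173 had another within 1 Mb. The nearest peak of any kind was an isolated long peak for 3.22% of the 373 (1.67 to 5.55%). This share was 2.04% for isolated peaks under 5 kb, inside that interval. It was 0.748% for all peaks, among which clustered peaks cannot have such a nearest peak. Whether the pairs exceed what the spacing of the list gives was not tested.

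Beyond the excluded distance, the surroundings of isolated long peaks were less crowded than those of clustered long peaks and more crowded than those of shorter isolated peaks. Counting only peaks beyond the neighbour distance and up to 250 kb away, the median number was 12 (11 to 13) for isolated long peaks, 16 (15 to 16) for clustered long peaks and 10 (10 to 10) for isolated peaks under 5 kb. The median over all peaks was 13. The peaks in that zone held a median of 26.7 kb (23.6 to 30.4 kb) around isolated long peaks, 38.7 kb (37.0 to 40.3 kb) around clustered ones and 18.6 kb (18.2 to 19.1 kb) around shorter isolated ones. Around all peaks this median was also 26.7 kb (26.3 to 27.1 kb), inside the interval of the isolated long peaks. On 19 of 20 chromosomes the median number was lower for isolated than for clustered long peaks, chromosome 18 being the exception with 13.5 against 13. On 18 of 20 it was higher than for isolated peaks under 5 kb. The exceptions were chromosome 9, with 7 against 9, and chromosome 3, with 10 in both. Spacing at this scale is related to the nearest gap that the rule used, so these values describe the chosen peaks.

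The difference was largest close to the peak. Between the neighbour distance and 25 kb away, isolated long peaks had 0.957 other peaks on average, clustered long peaks 1.41 and shorter isolated peaks 0.604. In this step 59.0% of isolated long peaks had at least 1 other peak, against 75.4% and 41.5%. Between 225 and 237.5 kb the averages were 0.590, 0.662 and 0.530. Of the 19 steps beyond the neighbour distance, isolated long peaks had more other peaks than shorter isolated ones in 18, the exception being the last step (0.488 against 0.521), and fewer than clustered long peaks in 19. Among isolated peaks the median number beyond the neighbour distance and up to 250 kb was 9 at 500 bp, 11 at 3 to 4 kb and 10 at 4 to 5 kb. Within the range it was 13 at 5 to 6 kb, 11 at 6 to 7 kb, 14 at 7 to 8 kb, 11.5 at 8 to 9 kb and 12 at 9 to 10 kb. Above the range it was 12 at 10 to 15 kb, 14.5 at 15 to 20 kb and 13 from 20 kb.

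**Figure D3:**
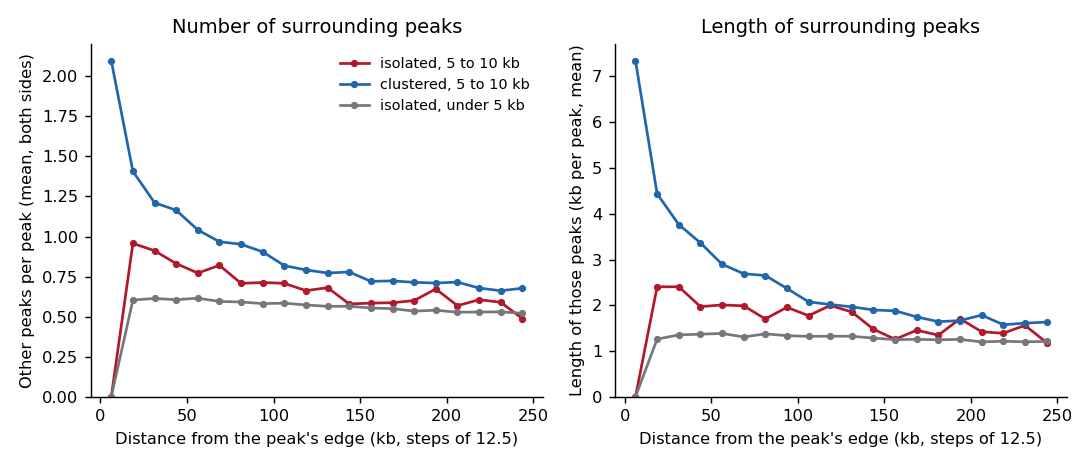
Mean number of other peaks (left) and mean of their summed length in kb (right), per peak and over both sides. Values are in 20 equal steps up to 250 kb from the peak's edge. Isolated long peaks are red, clustered peaks of the same length blue and isolated peaks under 5 kb grey. The first step is empty for isolated peaks by rule, and in the next step the red line lies between the others, at 0.957 peaks.

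Isolated long peaks occurred on every numbered chromosome. Chromosome 1 had the most, 53, followed by chromosome 2 with 32, chromosome 5 with 31 and chromosomes 3, 4 and 10 with 29 each. The fewest were 5 on chromosome 12, 6 on chromosome 18 and 7 on chromosome 19. As a share of the peaks of 5 to 10 kb, they ran from 6.94% on chromosome 12 (5 of 72, interval 2.29 to 15.5%) to 24.6% on chromosome 4 (29 of 118, interval 17.1 to 33.4%). Chromosome 2 had 22.9%, chromosome 11 had 21.3% and chromosome 15 had 20.9%, and the median chromosome had 16.9%. The interval of chromosome 12 lay below those of chromosomes 4 and 2, and the intervals of all other pairs overlapped.

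The share was lower where peaks were denser. Across the 20 chromosomes it went with the number of peaks per Mb of span at Pearson's r -0.62 and Spearman's rho -0.65, and at -0.56 and -0.38 with stretches of 1 Mb or more without a peak left out of the span. These coefficients describe the chromosomes and carry no test, since the density of peaks enters the condition of isolation. Chromosomes 10 and 12 were the densest, with 21.7 and 20.2 peaks per Mb of the full span and 26.3 and 27.9 without such stretches. Chromosome 10 had an isolated share of 16.8%, near the median chromosome, and chromosome 12 had the lowest share. Per 100 Mb of span without such stretches, isolated long peaks numbered from 10.2 on chromosome 18 to 31.5 on chromosome 10, and clustered long peaks from 62.0 on chromosome 11 to 172.0 on chromosome 12. The number of clustered long peaks per 100 Mb followed the density of all peaks closely (r 0.90, rho 0.87), and that of isolated long peaks less so (r 0.27, rho 0.39). Peaks of 5 to 10 kb are themselves part of that density.

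**Figure D4:**
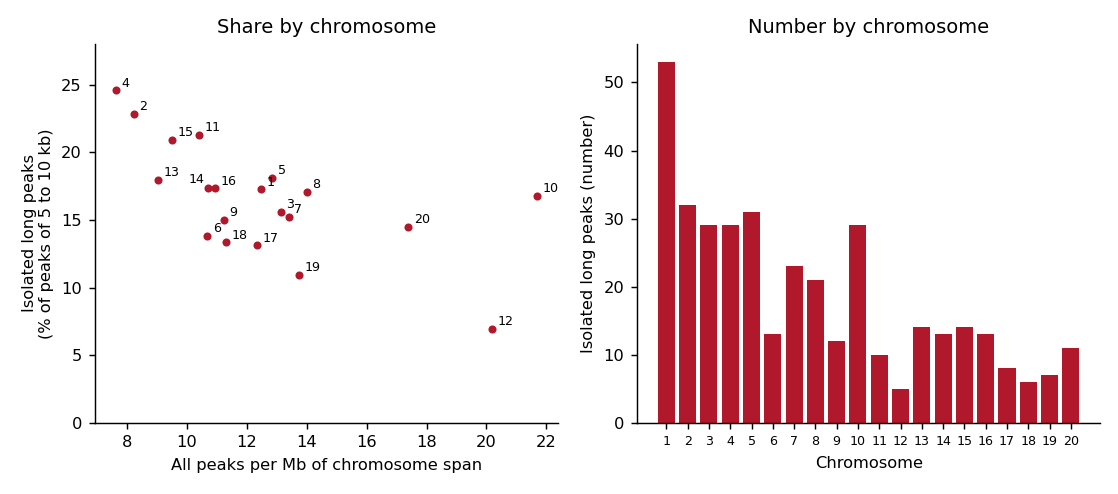
Left, isolated long peaks as a percentage of the peaks of 5 to 10 kb on each chromosome against the density of all peaks per Mb of span, each point labelled with its chromosome. Right, the number of isolated long peaks per chromosome, from 5 on chromosome 12 to 53 on chromosome 1.

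The median length and median nearest gap of isolated long peaks varied less between chromosomes than their share of the length range. The highest value was 1.26 and 2.28 times the lowest, against 3.54 times for the share. The largest nearest gap varied more, by 10.1 times. Median lengths of isolated long peaks were lowest on chromosome 19, at 5692 bp, and highest on chromosome 6, at 7152 bp, and median nearest gaps from 18.2 kb on chromosome 18 to 41.4 kb on chromosome 17. The value of chromosome 17 rests on 8 peaks and that of chromosome 18 on 6. Median gaps of the chromosomes with over 20 isolated long peaks were between 18.3 kb (chromosome 5) and 25.4 kb (chromosome 8).

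The rows of the list are not in genomic order, and the labels do not say what orders them. Row position was not used to choose the peaks. Isolated long peaks stood at a median of 31.0% of the way down the list (27.1 to 34.7%), clustered long peaks at 28.9% (27.6 to 30.7%) and isolated peaks under 5 kb at 52.9% (52.2 to 53.8%). The median was lower than that of shorter isolated peaks on 20 of 20 chromosomes. Against clustered long peaks it was lower on 10 chromosomes and higher on 10, and the intervals overlapped. The first 25% of the rows held 41.8% of the isolated and 43.6% of the clustered long peaks. The next 25% held 34.9% (30.0 to 39.9%) of the isolated and 28.4% (26.4 to 30.6%) of the clustered ones, and the last 10% held 3.49% and 4.23%. Row position went with length, which the rule used, in isolated and clustered peaks alike. The median of isolated peaks was 55.8% at 500 bp, 42.5% at 4 to 5 kb and 27.1% at 9 to 10 kb, and that of clustered peaks was 55.6%, 38.0% and 23.4%. The difference from shorter isolated peaks therefore cannot be told apart from the difference in length.

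The 5 isolated long peaks that stood first in the list were chr1:152558605-152563626 (row 152, 5022 bp), chr7:71135498-71144610 (row 296, 9113 bp), chr1:79605350-79613600 (row 359, 8251 bp), chr1:172693155-172698917 (row 373, 5763 bp) and chr8:108371294-108376296 (row 625, 5003 bp). Their nearest gaps ran from 14.6 to 54.2 kb, and the nearest peak of each belonged to a cluster. The lengths lay at both ends of the range, so the first rows did not hold only the longest of these peaks.

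**Figure D5:**
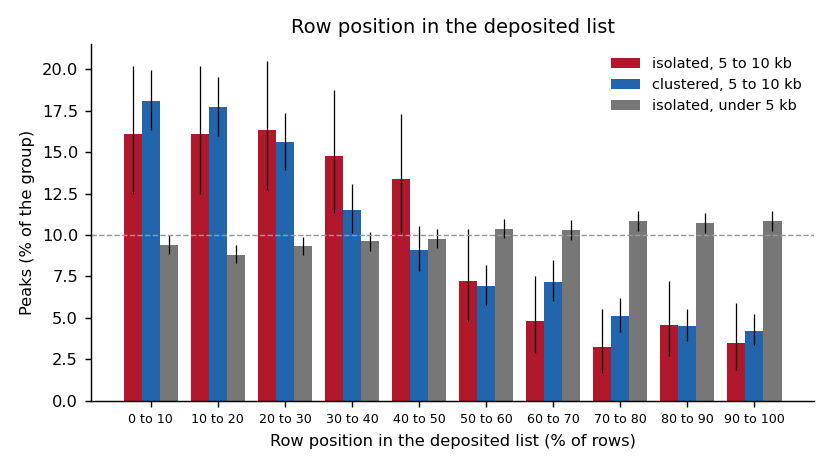
Percentage of each group of peaks in each 10% of the rows of the deposited list, for isolated long peaks (red), clustered peaks of the same length (blue) and isolated peaks under 5 kb (grey), with exact 95% binomial intervals. The dashed line marks an even spread, and the red and blue bars are above it in the first 40% of rows and below it in the last 50%.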

How the data were processed

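H3K27ac ChIP-seq of pooled sciatic nerves of rats at postnatal day 15 gave 1 ChIP and 1 input library. The deposited file is 1 list with 3 columns, the chromosome, start and end of each peak, in the authors' coordinates. It holds no other unit. CASAVA 1.8.2, Bowtie and HOMER are named per the submitters' processing notes, without roles or settings. Neither the build nor the peak threshold nor the use of the input is given in the sources used here, and the read depth is unknown.

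Gaps, neighbours and row positions were computed in Python 3.11.15 (pandas 2.3.3, numpy 2.4.6, scipy 1.17.1) and drawn with matplotlib 3.10.9. For printing, 1 was added to each start, on the reading that the list counts from 0 as BED files do. Intervals of medians are exact binomial order-statistic intervals, those of shares exact Clopper-Pearson intervals. No test was run, since peaks of 1 library are not replicates. The nearest peak was taken on either side, and peaks between 2 distances were counted by their nearer edge. The classes of peaks, and the counts of surrounding peaks for a part of them, were checked on a simulated list. The other steps were not checked in this way. The peaks and the comparisons were chosen with earlier results of these data known. Regions named were the 10 longest, the remotest of each chromosome, the first 5 in the list and the 2 nearest each limit of the rule on either side. The distance to transcription start sites and marker genes was not analysed here, for want of an annotation of the same build, and no sequence is printed.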

Additional observations from a re-analysis of the deposited data

How the results depend on the processing

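Of 63 values (7 results under 9 other settings), 41 stayed within their interval, or for counts within 1.5 times, and 22 moved. A neighbour distance of 5 kb gave 831 isolated long peaks, 37.7% of their length range, with a median nearest gap of 11427 bp, a nearest peak of 1842 bp and 14 peaks within 250 kb. A distance of 25 kb gave 153 peaks (6.95%), 36845 bp and 10 peaks within 250 kb. Lengths of 6 to 10 kb gave 206 peaks with a median of 7068.5 bp, and 4 to 8 kb gave 653 peaks (19.8%) with a median of 4959 bp at 36.7% of the rows. Leaving out peaks of 500 bp gave 20.97% isolated and a nearest peak of 1842.5 bp. Gaps between centres gave 620 peaks (28.1%), a nearest gap of 19273 bp, a nearest peak of 1950.5 bp and 14 peaks within 250 kb. Distance, length and centres redraw the members by construction. The other gap limits and keeping X moved none of the 7 results. Isolated long peaks had a lower median length than clustered ones under all 9 settings. Length is part of the rule, several settings kept nearly the same peaks and the main intervals overlapped, so this count is a description. Isolated long peaks also had fewer peaks within 250 kb, a direction that the rule largely fixes. Their nearest peak was shorter under 8, all but gaps between centres, and also when only the nearest peak was picked by centres (1586 against 2026 bp). The rule bears on this direction too, since the nearest peak of a clustered peak is itself clustered. The planned settings for start sites were not run. No paired analysis was possible because there is 1 ChIP library, and depth is unknown.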

Other observations

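Some peaks outside the comparisons met most of the conditions. On X, which was left out by rule, 6 peaks met all the conditions on length and spacing. The 8 isolated peaks of 5 to 10 kb beside a gap of 1 Mb or more lay on chromosomes 1 to 7 and 11, each with 1 peak. The one beside the longest gap, chr5:18891119-18896379, was 5261 bp long with 1907.8 kb free on its left and 296.5 kb on its right. The longest of them, chr2:283534226-283542499 with 8274 bp, had 1290.3 kb free on its right and 29.6 kb on its left. The one on chromosome 6, chr6:128737555-128743407, had 1870.6 and 221.9 kb free.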
